A study of Mus musculus with 8 samples.

Results

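The 10 genes described here are imprinted genes whose expression is tied to a CpG island, namely H19, Igf2, Meg3, Peg3, Peg10, Mest, Plagl1, Igf2r, Gnas and Kcnq1ot1. They were chosen by name, out of 30751 annotated protein-coding, lincRNA and antisense genes of the mouse, to ask whether promoters that carry DNA methylation on 1 allele hold a binding site of ASH2L. ASH2L is a core subunit of the KMT2 complexes, which methylate lysine 4 of histone H3 at promoters, many of them unmethylated CpG islands, and at enhancers. The study mapped ASH2L by chromatin immunoprecipitation in iMEF cells, which are immortalised mouse embryonic fibroblasts. In these cells exon 4 of both floxed Ash2l alleles had been removed by Cre-ER, and a lentiviral construct expressed human ASH2L with an N-terminal FKBP12F36V degradation tag and HA tags. The 8 libraries formed 4 groups of 2, which were precipitates and inputs from cells labelled WT, without dTAG, and from cells that had received dTAG for 1 h, a compound that leads the tagged protein to degradation. All groups carried the fusion protein in place of the endogenous one, and the cells were expanded from single clones, so the sites describe a tagged human protein in clonal fibroblasts.

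The data were 1 list of 6444 ASH2L sites (mm10) compiled over all libraries, each with a chromosome, a start and an end. The list gave no signal, no read depth, no value per library and no allele, so no value below has a replicate error and the effect of dTAG was not analysed here. For the same reason, a site at an imprinted locus cannot be assigned to the maternal or the paternal copy. No expression was measured in the list, and fibroblast markers could not be checked. The 16 sites outside the 21 assembled chromosomes were left out, which left 6428.

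Imprinted genes are expressed from 1 parental allele. At most of their loci a CpG island acquires DNA methylation in the egg or, less often, in sperm, and keeps it on that allele in the embryo, and such a region is called germline methylated. Other promoters near it become methylated later on the silent allele and are called somatically methylated. Lysine 4 methylation of histone H3 is known to mark the unmethylated allele of such islands. Which starts are methylated was taken here from textbook knowledge of mouse tissues, and methylation was not measured in these cells.

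Of the 10 imprinted genes, 1 had an ASH2L site, and it was Gnas. Counting sites by their centre, Gnas had 1 site within 1 kb of a transcription start site (TSS), and 2 within 3 kb of a TSS, both inside the gene. The other 9 genes had no site within 3 kb of any of their TSSs and none inside the gene. Over all 30751 genes, 11.0% had a site within 1 kb of a TSS, 12.3% had one within 3 kb, and 15.2% had one within 3 kb or inside the gene. All 10 imprinted genes had a computed CpG island within 1 kb of a TSS, and of the 19602 genes with such an island 17.0% had a site within 1 kb. The island rule is permissive, and the longest island near H19, of 434 bp, falls short of the 500 bp minimum used as an alternative. With so few genes, 1 in 10 cannot be told from any of these shares, and as the genes were chosen with earlier results known, no test was made.

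The distance to the nearest site varied widely among the imprinted genes. Gnas was at 0.077 kb, and the nearest gene outside the 3 kb window was Peg10, a retrotransposon-derived gene of the placenta, at 6.75 kb. Igf2r, the receptor that clears insulin-like growth factor 2, was at 60.9 kb, Kcnq1ot1, a noncoding RNA that silences its neighbours, at 71.9 kb, and Plagl1, a zinc finger transcription factor, at 97.1 kb. Mest lay 322 kb from a site, the fetal growth factor gene Igf2 446 kb, the noncoding RNA gene H19 516 kb, the noncoding RNA gene Meg3 647 kb and the zinc finger gene Peg3 1640 kb. The median was 210 kb, against 109 kb for all genes and 70.9 kb for genes with an island. Of the island genes, 1.37% lay farther from a site than Peg3, 5.52% farther than Meg3 and 7.65% farther than H19. This share was 9.4% for Igf2, 14.4% for Mest, 42.7% for Plagl1 and 49.8% for Kcnq1ot1. It was 53.5% for Igf2r, 79.0% for Peg10 and 94.1% for Gnas. A site within 100 kb was found for 5 of the 10 genes, beside 47.9% of all genes.

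**Figure D1:**
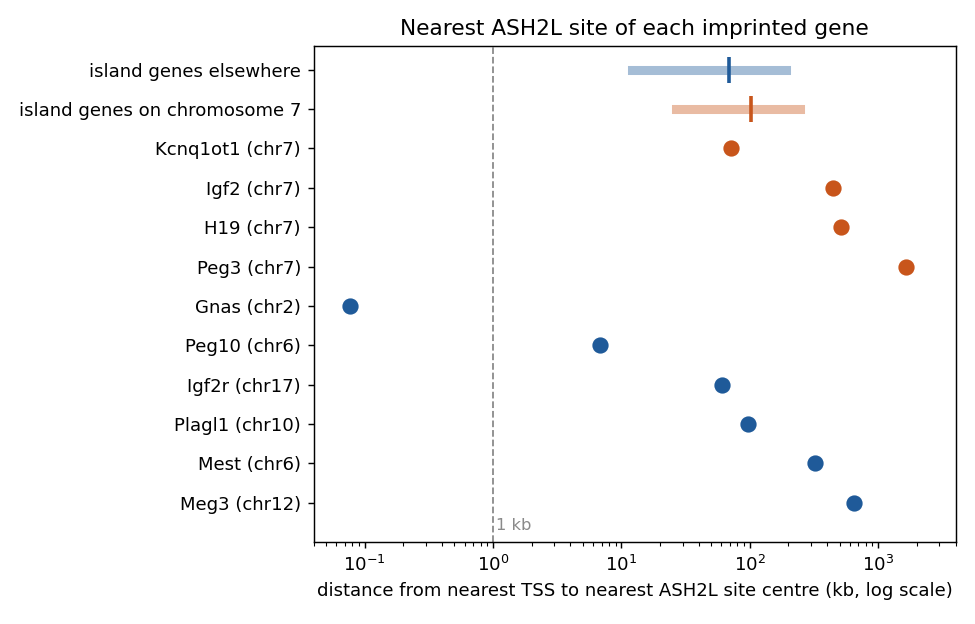
Distance in kb (log scale) from the nearest TSS of each of the 10 imprinted genes to the centre of the nearest ASH2L site, in orange for chromosome 7 and in blue for other chromosomes. Bars give the middle 50 percent and ticks the median of the genes with a CpG island, and only Gnas lies to the left of the dashed line at 1 kb.

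The 4 imprinted genes on chromosome 7 (H19, Igf2, Peg3 and Kcnq1ot1) had no site within 1 kb, within 3 kb or inside the gene, and of the 6 on other chromosomes 1 had. By a rule of 3 counts, which is too wide for so few genes, a count of 0 in 4 allows a share of up to 75.0%. No difference was detectable with so few genes. H19 and Igf2 lie in 1 imprinted cluster, so these are fewer than 4 separate loci. Chromosome 7 was also lower among all island genes, with a site within 1 kb in 10.6% of 1476 genes against 17.5% of 18126 elsewhere. The median distance was 481 kb (71.9 to 1640 kb) for the 4 genes and 79.0 kb (0.077 to 647 kb) for the other 6, beside 103 kb for island genes on chromosome 7 and 69.3 kb for those elsewhere. Within 100 kb of a TSS, 1 of the 4 genes and 4 of the other 6 had a site. Both the gene counts and the medians rest on so few genes that Kcnq1ot1, at 71.9 kb, lies closer to a site than 3 of the 6 genes on other chromosomes, Plagl1, Mest and Meg3.

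Gnas encodes the alpha subunit of the stimulatory G protein and, from other starts, the proteins known as Nesp and XLαs. Its exon 1 start is unmethylated on both alleles in textbook accounts, while the exon 1A start just upstream and the Gnasxl start are methylated in the egg, and the Nesp start is methylated later on the paternal copy. The site near a start was chr2:174330084-174330336, 253 bp wide, in a CpG island of 1711 bp, and its centre was 0.204 kb downstream of the first TSS of exon 1. It overlapped the 5′ UTR and the first codons of Gnas. It had a GC content of 79.1% and 40 CpGs, or 15.8 per 100 bp, and of the 3377 sites within 1 kb of a TSS 94.8% had fewer CpGs per length. Its width was below the median of those sites, 304 bp. The coding part of the site, chr2:174330296-174330336, is shown on the plus strand with each CpG in capitals, since the rest is annotated as UTR.
Gnas exon 1 site, coding part: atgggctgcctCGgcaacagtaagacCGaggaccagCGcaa

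The other starts of Gnas had no site within 1 kb. The exon 1A start, germline methylated, lay 2.19 kb from the site at exon 1, and had 83 CpGs in the kb around its TSS, against 134 at the exon 1 start. The computed islands of both starts follow each other with short gaps, so the site lay in the same CpG-rich stretch. The Gnasxl start lay 32.4 kb and the Nesp start 45.9 kb from the nearest site, with 46 CpGs each. Nespas, a germline methylated antisense RNA gene of the same locus, lay 34.8 kb from a site. The other Gnas site, chr2:174343077-174343292, was 216 bp wide, lay in an intron outside any island, had 3.24 CpGs per 100 bp and was 1.47 kb and 1.48 kb from 2 internal starts outside the basic annotation. With only the TSSs of the basic annotation, its distance was 12897.5 bp. To show the CpG content at the methylated end of that stretch, the 250 bases upstream of the basic-annotation TSS of exon 1A, chr2:174327518-174327767 on the plus strand (GRCm38.p6), are given with CpGs in capitals. Other TSSs of this start, outside the basic annotation, lie within that stretch.
Gnas exon 1A, before the basic TSS: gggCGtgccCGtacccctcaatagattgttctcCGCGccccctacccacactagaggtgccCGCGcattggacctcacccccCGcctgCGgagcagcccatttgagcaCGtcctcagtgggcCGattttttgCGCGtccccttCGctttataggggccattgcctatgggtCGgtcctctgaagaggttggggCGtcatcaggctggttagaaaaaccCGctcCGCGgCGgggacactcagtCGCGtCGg

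**Figure D2:**
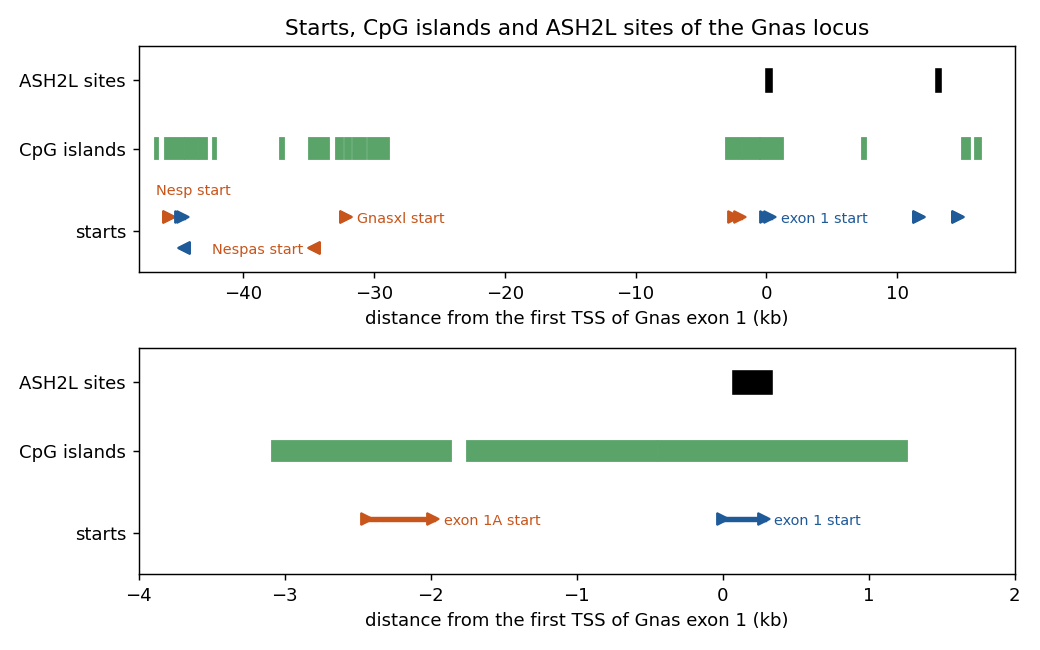
The Gnas locus with distance in kb from the first TSS of exon 1, whole above and enlarged below, showing ASH2L sites (black), computed CpG islands (green), starts methylated on 1 allele by textbook knowledge (orange) and other starts (blue), with arrowheads along the strand. The site at exon 1 lies in the island of the blue start, 2.19 kb from the orange exon 1A start, and site outlines are drawn slightly wider than scale in the upper map.

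TSSs of 1 gene that followed each other within 500 bp were joined into starts, which gave 39 starts from 74 TSSs of the 10 genes, 29 of them with an island. Of these, 11 are known to be methylated on 1 allele, all with an island, and 0 of the 11 had a site within 1 kb, a count that allows a share of up to 27.3%. Of the 18 island starts without known methylation, 1 had a site, the exon 1 start of Gnas. Over all genes, 12.3% of 30405 island starts had a site within 1 kb. The 7 germline methylated starts were those of Peg3, Peg10, Mest, Plagl1, Kcnq1ot1, Gnasxl and exon 1A, and the 4 somatically methylated ones were those of H19, Meg3, Igf2r and Nesp. Their distances to a site ran from 2.19 kb to 1650 kb, with a median of 71.9 kb. For Plagl1 and Mest the methylated start lay farther from a site than the gene's outermost TSS, at 127 and 337 kb. Igf2 was given no start of this kind here, since it is controlled from a region near H19, and the germline methylated regions of the H19 and Meg3 loci lie between genes. No site lay within 100 kb of any TSS of H19, Igf2 or Meg3.

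The kb around the TSS held a median of 48 CpGs at the 11 starts, from 32 at Kcnq1ot1 to 107 at Igf2r, and the median was 26 at the 18 other island starts of the same genes. Over all genes the median was 42 at island starts, 76 at those with a site and 36 at those without. The island of Kcnq1ot1 extends downstream of its TSS, and few CpGs lie upstream. For a comparison by eye, the stretches of up to 250 bases before the main TSS of 5 methylated starts are given on the strand of the gene (GRCm38.p6), without annotated UTR and with CpGs in capitals. The Plagl1 stretch also holds earlier TSSs of the same start, outside the basic annotation. They are chr6:4747208-4747305 (Peg10, plus strand), chr6:30737803-30738049 (Mest, plus), chr10:13090585-13090787 (Plagl1, plus), chr7:142578144-142578393 (H19, minus) and chr7:143296550-143296799 (Kcnq1ot1, minus). CpGs per 100 bp ranged from 2.0 in Kcnq1ot1 to 13.3 in Peg10, with 5.2 in H19, 5.67 in Mest and 7.39 in Plagl1.
Peg10 upstream: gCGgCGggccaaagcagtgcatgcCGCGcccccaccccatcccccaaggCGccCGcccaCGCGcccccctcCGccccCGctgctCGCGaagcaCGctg
Mest upstream: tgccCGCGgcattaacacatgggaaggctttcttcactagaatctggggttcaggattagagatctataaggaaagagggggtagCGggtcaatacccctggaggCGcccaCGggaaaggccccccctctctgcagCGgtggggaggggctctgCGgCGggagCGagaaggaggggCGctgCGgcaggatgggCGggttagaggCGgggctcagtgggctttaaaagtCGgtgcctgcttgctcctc
Plagl1, before the main TSS: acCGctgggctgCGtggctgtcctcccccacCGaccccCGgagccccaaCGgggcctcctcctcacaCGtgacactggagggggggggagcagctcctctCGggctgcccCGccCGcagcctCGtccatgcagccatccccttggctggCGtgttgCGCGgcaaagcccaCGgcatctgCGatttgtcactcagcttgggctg
H19 upstream: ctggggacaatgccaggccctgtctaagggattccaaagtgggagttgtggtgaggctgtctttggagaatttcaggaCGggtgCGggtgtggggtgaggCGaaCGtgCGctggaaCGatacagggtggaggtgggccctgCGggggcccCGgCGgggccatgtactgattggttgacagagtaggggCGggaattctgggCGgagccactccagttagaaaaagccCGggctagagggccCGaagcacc
Kcnq1ot1 upstream: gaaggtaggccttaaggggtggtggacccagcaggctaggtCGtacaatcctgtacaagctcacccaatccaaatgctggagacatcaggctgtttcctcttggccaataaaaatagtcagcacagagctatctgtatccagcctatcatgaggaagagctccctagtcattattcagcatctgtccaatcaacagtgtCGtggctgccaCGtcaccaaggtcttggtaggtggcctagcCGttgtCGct

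The share of starts with a site followed the CpG content over all genes. When the island starts were ordered into 4 bins of like size by the number of CpGs in the kb around the TSS, 1.8% had a site at 1 to 20 CpGs, 3.86% at 21 to 41, 15.2% at 42 to 70 and 27.9% at 71 to 181. Of the 11 methylated starts, 3 fell into the bin of 21 to 41 CpGs and 4 into each of the upper ones. The Igf2r start, with 107 CpGs, the exon 1A start of Gnas, with 83, the Plagl1 start, with 79, and the Peg10 start, with 74, were in the bin with most CpGs and had no site within 1 kb. Igf2 had an island start of 103 CpGs without known methylation, also with no site. The number of annotated TSSs differs among the genes, from 1 in Kcnq1ot1 to 16 in Gnas, and more TSSs give a site more chances to be near one. Among island genes with at least 10 TSSs, 27.9% had a site within 1 kb, and of the imprinted genes Meg3, Mest, Plagl1 and Gnas were in that class.

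**Figure D3:**
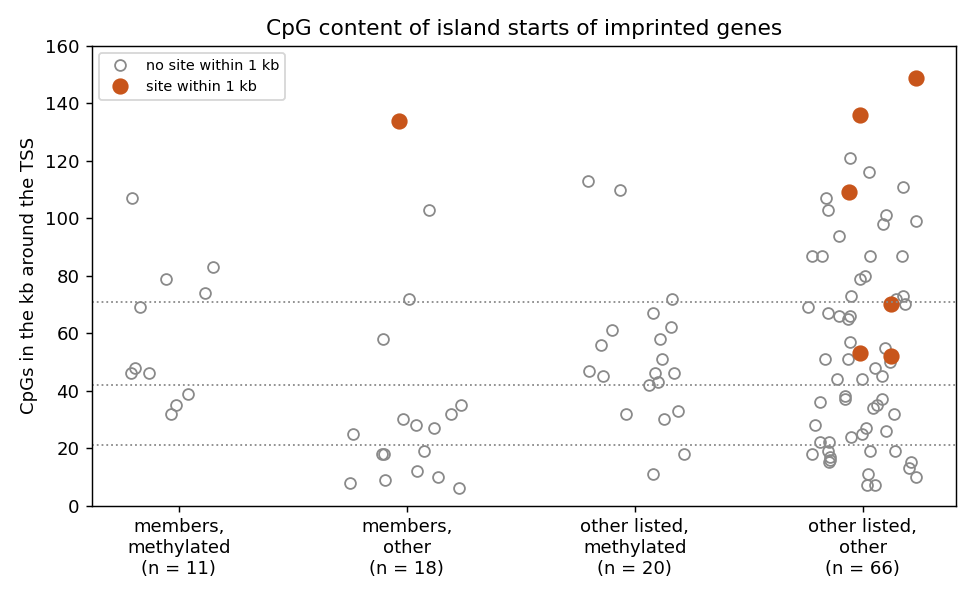
CpGs in the kb around the TSS (vertical axis) for each island start of the 10 genes (members) and of the other listed imprinted genes, by textbook methylation, with starts that had a site within 1 kb filled in orange. Dotted lines are the limits of 4 bins of like size over all island starts, and no methylated start is filled, including the 7 above the upper line, a bin in which 27.9% of all island starts had a site.

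The same question was put to a list of 67 imprinted genes from 23 clusters, compiled by name and including the 10. Of these, 7 had a site within 1 kb of a TSS (10.4%, beside 11.0% of all genes), and all 7 were among the 59 listed genes with an island (11.9%, beside 17.0% of all island genes). They were Gnas, Grb10, Ube3a, Commd1, Ago2, Sgce and Zrsr1. Of the listed island genes on chromosome 7 it was 1 of 22 (4.55%), Ube3a, and elsewhere 6 of 37 (16.2%), beside 10.6% of all island genes on chromosome 7 and 17.5% of those elsewhere. With islands of at least 500 bp, these background shares were 13.6 and 22.4%. Among starts, 0 of 31 island starts methylated on 1 allele had a site within 1 kb. Of 84 island starts without known methylation 7 had one (8.33%), and both shares were below the 12.3% of all island starts. A count of 0 in 31 allows a share of up to 9.68% for independent starts. Several share an island or a cluster, so that limit is too low, and no difference from 12.3% can be read from it. The limit lies above 8.33%, so these counts cannot tell the methylated from the other starts. The class without known methylation includes every annotated start that was not itself classed as methylated, also where it adjoins one. Of the 84, 14 have a computed island within 1 kb that also lies within 1 kb of a methylated start, and 3 of the 7 starts with a site are among them, namely Gnas exon 1 and the starts of Zrsr1 and Commd1 near the Zrsr1 germline methylated start. Gnas exon 1 itself lies in another island than exon 1A, and both have the island between them within 1 kb. Without these 14, the count was 4 of 70 (5.71%), with sites at Ago2, Commd1, Grb10 and Ube3a, and for the 10 genes it was 0 of 14. Several methylated starts share an island, such as those of Peg3 and Usp29, and joining them leaves 28. In the bin of 42 to 70 CpGs the counts were 0 of 16 methylated and 3 of 19 other starts, beside 15.2% of all island starts in that bin, and in the bin of 71 to 181 they were 0 of 7 and 4 of 24, beside 27.9%. In the lower bins neither class had a site, with 0 of 2 and 0 of 21 at 1 to 20 CpGs and 0 of 6 and 0 of 20 at 21 to 41. Within 3 kb, 2 of the 31 methylated starts had a site, exon 1A of Gnas and Zrsr1, beside 9 of the 84 other island starts. The 3 kb share over all island starts was not computed. On chromosome 7 the counts within 1 kb were 0 of 11 methylated and 1 of 27 other island starts, and elsewhere they were 0 of 20 and 6 of 57. Since genes and starts were classed with the sites known, these counts are descriptions without a test.

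**Figure D4:**
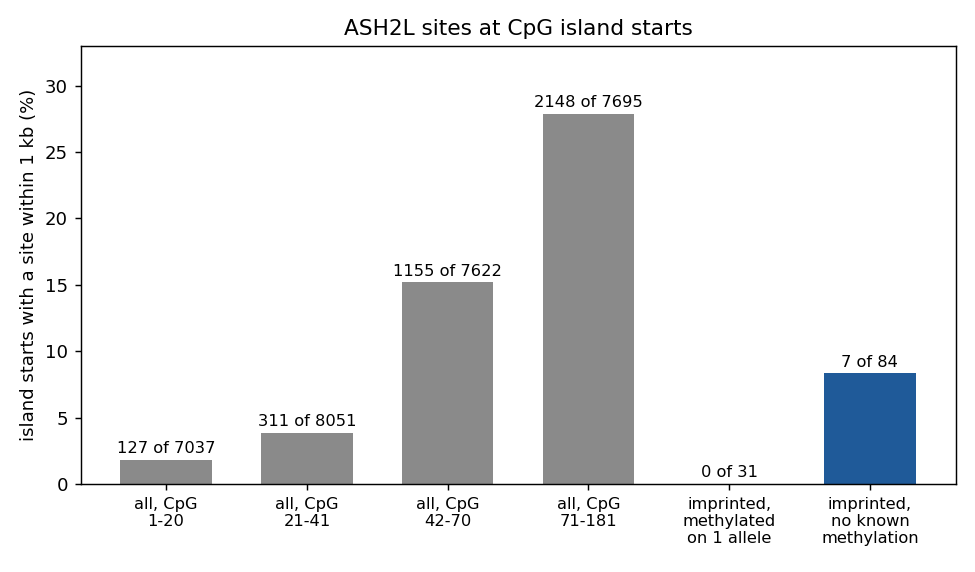
Percent of CpG island starts with an ASH2L site within 1 kb, for all genes in 4 bins by the number of CpGs in the kb around the TSS (grey) and for the 67 imprinted genes by textbook methylation, with the counts above the bars. The bars rise from 1.8 to 27.9% with CpG content, and the methylated imprinted starts stand at 0 of 31. The other imprinted starts stand at 7 of 84, and these counts cannot tell both classes apart.

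At Grb10, an adaptor of insulin receptor signalling, the arrangement was like that at Gnas. The site chr11:12037052-12037342, 291 bp wide with 15.5 CpGs per 100 bp, lay in the island of the main start, 0.204 kb downstream of its TSS, and the germline methylated brain starts of the gene lay 10.5 and 9.23 kb from the nearest site. A further Grb10 site of 294 bp lay in an intron outside any island, 2.3 kb from a start outside the basic annotation. Ube3a, a ubiquitin ligase gene silenced on the paternal copy only in neurons, had 2 sites in the island of its start, of 200 and 265 bp. Ago2, of the small RNA pathway, had a site 0.308 kb downstream of its start, and Commd1 had one 0.032 kb downstream of its start. None of these starts is known to be methylated on 1 allele. The Grb10 site is shown in its part without UTR, chr11:12037052-12037191 on the minus strand, with CpGs in capitals. This stretch lies downstream of the TSS, so it does not match the upstream sequences above in position. It has 17.9 CpGs per 100 bp, while the Zrsr1 site, given below, has 4.5.
Grb10 site: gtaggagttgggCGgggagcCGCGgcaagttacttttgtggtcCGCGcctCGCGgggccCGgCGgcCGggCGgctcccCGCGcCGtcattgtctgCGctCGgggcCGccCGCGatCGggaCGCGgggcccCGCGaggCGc

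At Zrsr1 and Sgce the sites were of another kind. The Zrsr1 site, chr11:22973631-22973830, had the narrowest width in the list, 200 bp, and lay in the coding exon of this retrogene, 1725.5 bp downstream of its germline methylated start and within 1 kb only of starts outside the basic annotation, of Zrsr1 (502.5 bp) and of its host gene Commd1 (0.87 kb). It had 4.5 CpGs per 100 bp, under the median of 9.27 for sites near a TSS. Without the starts near this site, 5 of 82 island starts with no known methylation had a site (6.1%), and with only starts of the basic annotation it was 5 of 48 (10.4%). The Sgce site, chr6:4740418-4740690, lay in an intron outside any island, 0.35 kb from a start outside the basic annotation and 6.51 kb from the germline methylated start that Sgce shares with Peg10, and it is the site nearest to Peg10. Likewise, the site nearest to Igf2r was 200 bp wide and lay in an intron of Airn, the antisense RNA that silences Igf2r, whose own germline methylated start was 89.2 kb from a site. The Zrsr1 site is given whole on the plus strand with CpGs in capitals, as the site closest to a germline methylated start.
Zrsr1 site: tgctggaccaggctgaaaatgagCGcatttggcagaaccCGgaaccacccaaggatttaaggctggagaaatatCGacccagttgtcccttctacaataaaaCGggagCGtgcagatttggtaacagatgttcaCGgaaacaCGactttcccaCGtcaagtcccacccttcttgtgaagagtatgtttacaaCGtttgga

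Germline methylated regions are bound by the zinc finger protein ZFP57, which keeps their methylation and recognises the hexamer TGCCGC when it is methylated. The hexamer was sought on both strands, that is as TGCCGC or GCGGCA, in the kb around the TSS. It was present at 8 of the 11 methylated starts of the 10 genes, 6 of the 7 germline and 2 of the 4 somatically methylated ones. There were 10 matches at Mest, 6 at Plagl1 and 3 at Peg3, and none in the window at Kcnq1ot1, H19 and Nesp. Of all island starts 39.7% had a match, with 57.0% among those with a site and 37.3% among those without. These shares were not matched for CpG content. The exon 1 start of Gnas had 2 matches. A match of these letters is a description of the sequence.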

How the data were processed

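The deposited list of ASH2L sites gives positions in bp (other values are not in it). Per the methods of the study, the authors aligned trimmed reads with BWA to mm10 (GRCm38.p6), filtered them with SAMtools, merged replicates and called peaks with MACS2, and the deposited list is the union over all samples, so it holds no value per library. Versions are not given in the sources used here. DESeq2 and deepTools are also named in the submitters' processing notes. The planned count test of the signal with and without dTAG was not possible on positions. The 0 columns of other samples needed no exclusion.

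Starts were read as counted from 0 and are printed counted from 1. Sites were compared by their centre with all TSSs of GENCODE mouse release 21 on GRCm38.p6, an earlier release than that of the authors, for protein-coding, lincRNA and antisense genes of the 21 assembled chromosomes. Of the 67 listed genes, 3 (Peg13, Rian and Zfp264) are of other types and lie outside this background. CpG islands were joined windows of 200 bp in which GC bases exceeded 50% and the ratio of CpGs observed to those expected exceeded 0.6, counted for a gene within 1 kb of a TSS. CpGs were counted in 1000 bp around each TSS, with the highest count taken for a start of several TSSs. The members, the list of 67 genes and the tests were chosen with earlier results of these data known, and starts were classed from textbook knowledge after the annotation had been seen. Named were the 10 genes, genes whose start carries the methylation at their loci, listed genes with a site within 1 kb and genes nearest to such sites, while the other genes of the closing section (Rasgrf1, Slc38a4, Kcnq1, Dio3, Dlk1 and the Snrpn cluster) were chosen from the list after their values were seen. The class of genes with at least 10 TSSs was added after seeing the data. Sites and genes are not replicates, so counts are given beside the share over all genes. Where a count is 0, the share it allows was computed from 3 counts and covers counting error only. This is an approximation that is too wide for few genes or starts, and it takes them as independent. Alternatives changed the window, the edge of the site, the TSS set, the widths included, the reading of starts, the joining of TSSs and the minimum length of islands (500 bp). The calculations used Python 3.11.15, SciPy 1.17.1, pandas 2.3.3, matplotlib 3.10.9 and NumPy 2.4.6, and were tested on simulated data, in which planted sites were recovered.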

Additional observations from a re-analysis of the deposited data

How the results depend on the processing

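Of 63 alternative values for 10 results, 49 kept close to the main value (a count within 1.5 times, or a share within its exact 95% binomial interval). With only the start of the gene model, 1 per gene, the Gnas site was lost, since the gene model begins at the Nesp start. The counts were then 0 genes within 1 kb and 0 within 3 kb, 0 outside chromosome 7, 0 starts, and 3 of the 67 imprinted genes. With only sites at or above the median width of 268 bp, both Gnas sites were lost, which left 0 genes within 1 kb, within 3 kb and inside the gene, 0 outside chromosome 7, 0 starts and again 3 imprinted genes. With windows of 2 kb the number of starts with a site rose from 1 to 3, all in Gnas. The count of 0 on chromosome 7 was the same under every alternative run. With only islands of at least 500 bp, the share of island genes with a site rose from 10.6 to 13.6% on chromosome 7 and from 17.5 to 22.4% elsewhere. The share of other island starts with a site, 8.33%, was 5.71, 7.89 and 6.1% when starts with an island in common with a methylated start, that lie within 1 kb of one, or that lie near the Zrsr1 site were left out, alternatives chosen after seeing the data. No paired analysis was possible because the list pools all libraries and has no value per sample, and for the same reason no library could be left out. Read depth and mappability were not available for these loci, so weak binding below the calling threshold, or binding on 1 allele only, was not tested.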

Other observations

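Other listed imprinted genes had sites inside the gene but more than 3 kb from any TSS. Rasgrf1 had 1 site in an intron, 6038.5 bp from a TSS, with 0 CpGs in 206 bp. Slc38a4 had 2 intronic sites 19056.5 and 18429.5 bp downstream of a TSS, and its germline methylated start was 32.8 kb from a site. Kcnq1, the gene in which Kcnq1ot1 starts, had 2 intronic sites of 262 and 377 bp, neither in an island, and they are the sites nearest to Igf2 and to Kcnq1ot1. Dio3, at the far end of the Meg3 cluster, lay 5.75 kb from a site, and Dlk1, at its other end, 559 kb. In the Snrpn cluster on chromosome 7, Ube3a had sites at its start, while 6 other genes lay far from any site, with 776 kb for Snrpn and Snurf, 1880 kb for Peg12, 1930 kb for Mkrn3, 1970 kb for Magel2 and 2000 kb for Ndn.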
